A study of Mus musculus with 2 samples.

Results

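Hair, mucosal and simple-epithelial keratins, with a mixed group of other epithelial keratins, were followed in open chromatin of mouse basal epidermal cells. The set was the 38 keratin genes of the 2 mouse keratin clusters that are left when the basal, interfollicular suprabasal and wound keratins are taken out. A peak was given to a keratin when it overlapped the gene, or when that keratin was the nearest protein-coding gene within 50 kb. The gene table placed 37 of the 38, while Krt85, a hair matrix keratin, had no entry and was not analysed here. Of these 37 genes, 33 had at least 1 peak, with 124 peaks in all out of 84591 nuclear peaks. Open chromatin had been profiled by ATAC-seq, in which a transposase inserts where DNA is accessible, in 1 library from control (WT) mice and 1 library labelled as basal lineage ablation. Both groups were skin epidermis, traced from the K14 lineage and gated alike on high α6 integrin without CD34 or Lrig1, with the reporters written as YFP+/GFP+/RFP+. The labels do not give the age of the mice, the number pooled or the means of ablation. One data column says Exp rather than ablation and was taken as the ablation library because the other is marked as control. The control column in turn carries the number 2, while the control sample is numbered 1, so every control value rests on the word CTRL in the column name. Without replicates there was no spread between animals, no difference was tested, and every interval below is a 95% exact interval for counting error only.

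Keratins are intermediate filament proteins that assemble as obligate pairs of a type I and a type II chain. In mouse the type I genes lie in a cluster on chromosome 11, and the type II genes, together with the type I gene Krt18, lie in a cluster on chromosome 15. Each epithelium uses its own pairs: Krt8 with Krt18 in simple epithelia, Krt4 with Krt13 in mucosa, and the hard keratins in the hair shaft, all of them side by side with Krt5 and Krt14 of the basal epidermis. Accessible DNA is not the same as a transcribed gene, and in a bulk library fewer open cells and less open chromatin per cell cannot be told apart.

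Reads in nuclear peaks came to 17056996 in control and 12463908 in ablation, the median peak holding 76 and 62. The keratin peaks held 27670 and 19714 of these reads, which is 0.162% and 0.158%. The 3 mitochondrial peaks held 7.31% of the reads of all peaks in control and 31.2% in ablation. The table total used as a scaling below includes these reads, and the nuclear total leaves them out. The part of mitochondrial reads in the other ratios below was not tested. All 7 basal epidermis markers had a peak, where 76.3% of all protein-coding genes had one. Every marker of the Merkel and follicle lists below had a peak as well, so this count does not mark the cells as basal. The summed normalized reads of the basal markers ran from 363 (Krt15) to 3144 (Itga6) in control and from 406 (Krt15) to 2932 (Krt14) in ablation.

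Peaks were found around most of these keratins but seldom at their start sites. With a peak at 33 of 37 genes (89.2%), the set was not below the 76.3% of all protein-coding genes. A peak overlapped the gene itself in 25 of 37 (67.6%), against 70.9% of all protein-coding genes, whose median length is 17146 bp against 7476 bp here. Only 37.9% of the keratin peaks overlapped the gene they were assigned to, whereas 67.9% of all assigned peaks overlapped a gene. The others lay a median of 7349 bp away and at most 20621 bp, so no peak was near the 50 kb limit. The start-site window, 250 bases before to 50 after the RefSeq start, was listed for 29 members, and a peak overlapped it in 7 (24.1%), against 60.7% of protein-coding genes. These were Krt7 and Krt18 of simple epithelia, Krt13 of mucosa, Krt25 of the inner root sheath, Krt75 of the companion layer, Krt36 of the hair shaft, and Krt24. The windows are poor in CpG, with a median of 5.5 CpG against 7 over all 32851 windows and 21 over those overlapped by a peak. Among windows with at most 10 CpG, 5 of 27 keratin windows (18.5%) and 15.9% of all windows were overlapped by a peak. Whether CpG content bears on the lower share of genes was not tested.

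The sequences below show these start-site windows (RefSeq, GRCm38.p6, written along the gene), with every TATAAA in capitals. The inner root sheath genes Krt25, Krt26, Krt27 and Krt28 are neighbours on chromosome 11, and a peak overlapped the window of Krt25 alone among them.
Krt25 (chr11:99322902-99323201, minus strand): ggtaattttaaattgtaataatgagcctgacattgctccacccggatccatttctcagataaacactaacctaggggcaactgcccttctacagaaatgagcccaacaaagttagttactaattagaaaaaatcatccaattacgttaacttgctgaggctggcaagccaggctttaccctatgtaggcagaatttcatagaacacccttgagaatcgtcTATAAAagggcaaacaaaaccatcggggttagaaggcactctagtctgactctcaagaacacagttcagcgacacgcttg
Krt26 (chr11:99337916-99338215, minus strand): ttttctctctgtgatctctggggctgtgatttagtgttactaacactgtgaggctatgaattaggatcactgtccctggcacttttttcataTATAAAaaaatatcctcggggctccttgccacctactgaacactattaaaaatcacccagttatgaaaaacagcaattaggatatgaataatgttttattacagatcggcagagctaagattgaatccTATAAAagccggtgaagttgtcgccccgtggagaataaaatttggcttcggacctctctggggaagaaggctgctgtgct
Krt27 (chr11:99351069-99351368, minus strand): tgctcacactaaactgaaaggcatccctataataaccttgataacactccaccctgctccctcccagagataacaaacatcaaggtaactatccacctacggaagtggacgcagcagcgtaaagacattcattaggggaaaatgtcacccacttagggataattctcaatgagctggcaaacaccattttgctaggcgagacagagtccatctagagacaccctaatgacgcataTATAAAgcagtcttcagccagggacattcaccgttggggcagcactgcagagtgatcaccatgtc
Krt28 (chr11:99374854-99375153, minus strand): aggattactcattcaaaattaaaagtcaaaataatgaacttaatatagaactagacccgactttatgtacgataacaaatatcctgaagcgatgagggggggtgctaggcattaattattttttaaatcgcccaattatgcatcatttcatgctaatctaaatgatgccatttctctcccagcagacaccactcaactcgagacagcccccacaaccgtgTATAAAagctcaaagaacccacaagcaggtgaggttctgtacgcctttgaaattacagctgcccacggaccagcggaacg
The next windows were overlapped by a peak and hold no TATAAA. Those of Krt7 and Krt24 had the strongest start-site signal after Krt25, and that of Krt36, added after its values were seen, had the lowest ratio.
Krt7 (chr15:101412153-101412452, plus strand): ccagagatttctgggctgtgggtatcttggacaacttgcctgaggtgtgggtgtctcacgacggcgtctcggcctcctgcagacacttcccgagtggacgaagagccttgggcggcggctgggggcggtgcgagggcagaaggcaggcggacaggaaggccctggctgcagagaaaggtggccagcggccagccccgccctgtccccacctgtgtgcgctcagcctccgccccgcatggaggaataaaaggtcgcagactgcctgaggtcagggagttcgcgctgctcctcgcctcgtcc
Krt24 (chr11:99285213-99285512, minus strand): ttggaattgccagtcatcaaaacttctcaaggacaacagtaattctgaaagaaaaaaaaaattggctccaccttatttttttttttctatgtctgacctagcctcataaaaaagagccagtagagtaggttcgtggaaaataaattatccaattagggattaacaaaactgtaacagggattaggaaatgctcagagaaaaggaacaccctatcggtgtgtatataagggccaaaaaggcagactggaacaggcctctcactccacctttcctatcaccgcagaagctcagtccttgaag
Krt36 (chr11:100105577-100105876, minus strand): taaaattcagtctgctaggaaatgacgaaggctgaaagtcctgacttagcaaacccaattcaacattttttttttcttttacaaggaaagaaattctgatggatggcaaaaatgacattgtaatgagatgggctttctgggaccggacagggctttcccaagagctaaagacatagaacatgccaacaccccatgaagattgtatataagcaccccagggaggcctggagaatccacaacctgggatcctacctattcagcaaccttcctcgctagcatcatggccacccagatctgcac
TATAAA stood on either strand in 17 of the 30 windows of members (56.7%), against 13.6% of all windows; Krt13 has 2 windows. It began between 35 and 25 bases before the start on the strand of the gene in 11 of 30 (36.7%), against 1.75% of all windows, a range chosen after the positions were seen. In Krt25, Krt26, Krt28 and Krt73 it began 30 bases before the start, in Krt34 31 bases, and in Krt31, Krt32, Krt40, Krt12, Krt20 and Krt76 29 bases. All 7 inner root sheath windows and 6 of 9 hair shaft windows held TATAAA on either strand, while it was in 0 of 5 windows of the mixed epithelial group (Krt9, Krt23, Krt24, Krt78 and Krt79). Of the 7 windows overlapped by a peak 1 held TATAAA, and of the other 23 windows 16 held it. Over all windows it was in 6.59% of those overlapped by a peak and in 19.5% of the others. The AP-1 letters TGANTCA (both strands) were in 2 of 30 windows, both of Krt13, against 7.81% of all windows. CTTTGA or CTTTGT, the core letters bound by LEF1 (both strands), were in 9 of 30 (30.0%), against 31.2%. The window of Krt7 held 21 CpG and that of Krt18 17, the most in the set.

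Levels were compared as normalized reads per kb of the highest peak of each gene, with the mean of both libraries setting the order. Krt80, a type II keratin found in many epithelia, came first, with 916 in control and 929 in ablation. That peak lies 16572 bp from the gene, and a peak overlapping Krt80 (chr15:101369049-101370760) held 386 and 402. Krt31, a keratin of the hair cortex, followed with 737 and 615 in a peak 5030 bp from the gene. Then came Krt78 with 512 and 485 inside the gene, and Krt8 with 474 and 468 in a peak 858 bp away. The median over the 33 genes was 178, below the 278 of all protein-coding genes with a peak, and 12 of the 33 lay above the latter. Krt42, a neighbour in the type I cluster, reached 1327 and 1140 in a peak 16885 bp from the gene. The wound keratin Krt16 had 1219 and 1057, Krt5 640 and 671, and Krt14 411 and 441, each in a peak overlapping the gene. The lowest levels were those of Krt27 (36.6 and 60.8), Krt76 (73.2 and 37.6), Krt4 (67.3 and 53.8) and Krt13 (66.1 and 57.3). Of the genes analysed, 4 hair and sheath keratins had no peak by the rule: Krt26 and Krt74 of the inner root sheath and Krt35 and Krt81 of the hair shaft. The nearest peaks to them lay 4425 bp (Krt26), 3838 bp (Krt35), 1450 bp (Krt74) and 3550 bp (Krt81) away and went to Krt25, Krt36, Krt71 and Krt88. Krt74 is a transcribed pseudogene in the gene table, so it could receive overlapping peaks alone. Hair keratin genes are close copies of each other, and how reads with several matches were handled is not given in the sources used here; its part in these levels was not tested.

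**Figure D1:**
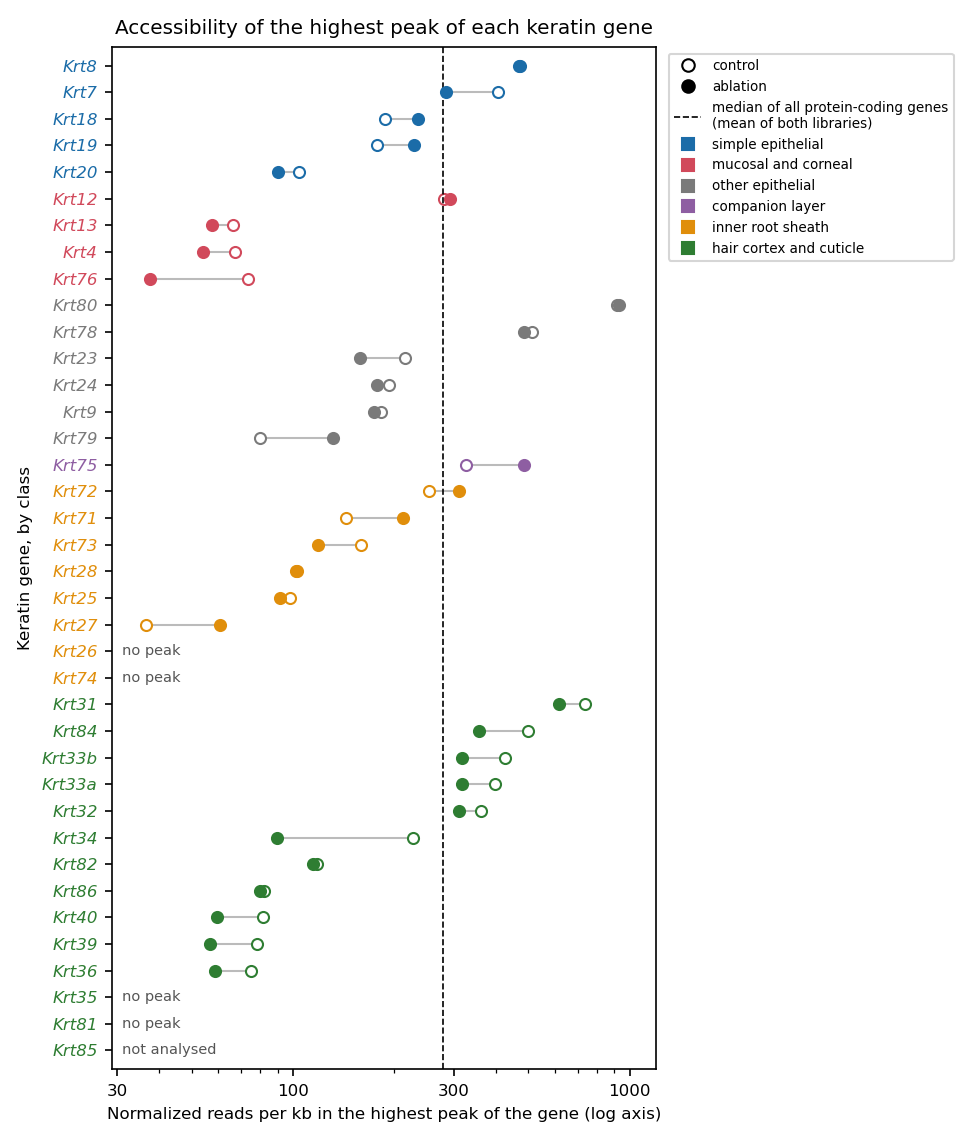
Normalized reads per kb in the highest peak of each keratin gene (log axis), for control (open circles) and ablation (filled circles), with genes ordered within class by the mean of both libraries. The highest peak may lie outside the gene, as for Krt80, which stands highest at 916 and 929 in a peak 16572 bp away. Krt27 stands lowest at 36.6 and 60.8. The dashed line marks the median of all protein-coding genes, 278.

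Across the set, most hair shaft keratins had a lower chromatin signal in ablation, while the medians of the other classes were nearer to no change. The ratio of a gene is the log2 of its summed normalized reads in ablation over control, with a pseudocount of 1, from peaks averaging at least 13.96 normalized reads over both libraries, the 10th percentile of all nuclear peaks. This kept 119 of the 124 peaks and 32 of the 33 genes, the single peak of Krt76 being too weak. The median over these 32 genes was -0.24, against -0.07 over all protein-coding genes. Ratios were below 0 in 23 of 32 genes (71.9%) and in 61.6% of all genes. The mixed group of other epithelial keratins had 5 of 6 genes below 0, with a median of -0.17. Other scalings moved the median of all genes to between -0.41 and 0.11, and the median of the members stayed below it in each, at -0.58 and -0.07 at those ends. The end at -0.41 was division by the table total, which includes the mitochondrial reads. With the nuclear total, which leaves them out, the median of all genes was 0.02. With the highest peak per gene or gene-end peaks alone the medians of the members and of all genes came close to each other (-0.10 and -0.10; -0.10 and -0.08). With division by the table total 27 of 32 genes were below 0, and with centring on strong gene-end peaks 18 of 32. The counting interval lay below 1 for 14 genes, above 1 for 6, and included 1 for 12. These counts hold for the deposited scaling alone. The same counts were not made over all genes, so these do not set the keratins apart from other genes.

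**Figure D2:**
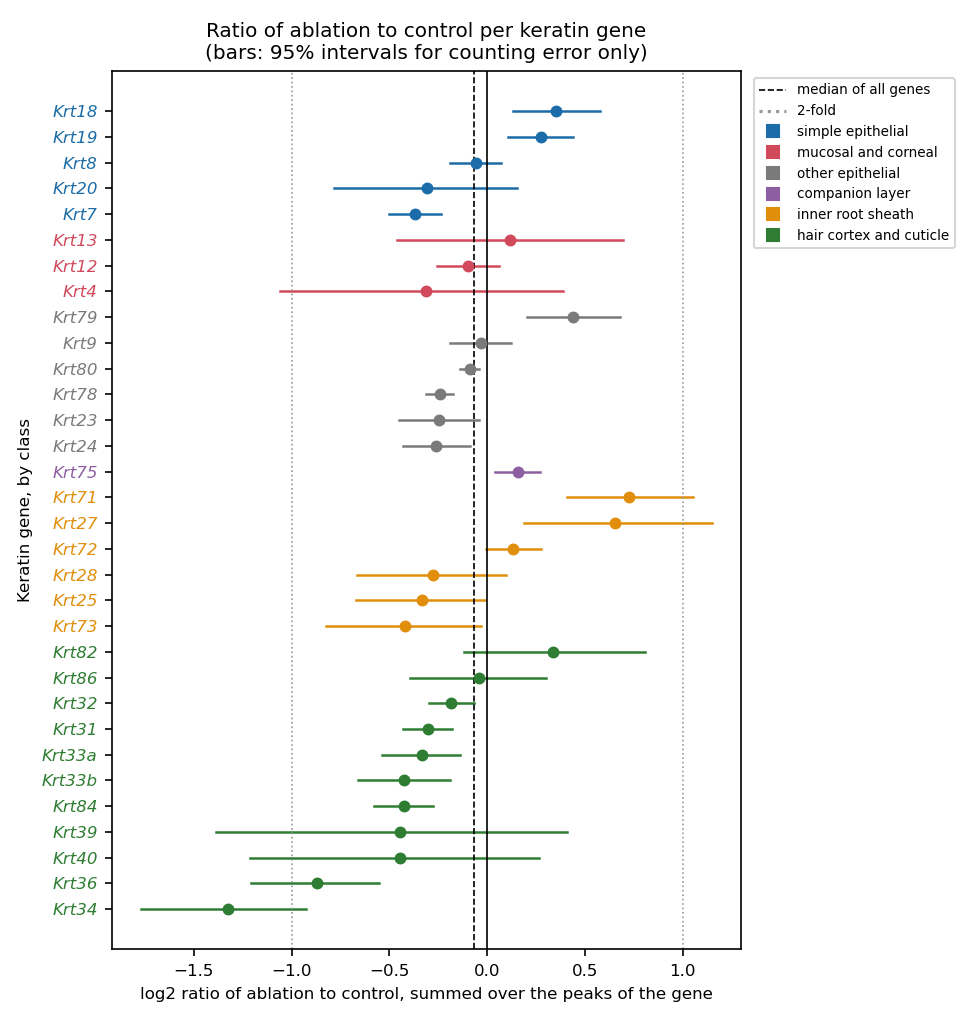
The log2 ratio of ablation to control for the 32 keratin genes with a tested peak, grouped by class; bars are 95% intervals for counting error only. Hair shaft genes (green) lie below the median of all genes (dashed, -0.07) except Krt82 and Krt86, and Krt34 alone passes 2-fold in these sums.

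At the level of single peaks, 7 of the 119 (5.88%) were at least 2-fold lower in ablation and 1 (0.840%) at least 2-fold higher, where 1.88% and 4.48% of all tested peaks were. At 1.5-fold, 19 were lower (7.47% of all tested peaks) and 7 higher (13.0%). Below 0 lay 78 of 119 (65.5%), against 51.3% of all tested peaks. The 7 lower peaks belonged to Krt34, Krt36 (2 peaks), Krt25, Krt28, Krt7 and Krt75, and the higher one to Krt71. The deposited table lists its peaks in 3 successive runs, and these runs differ in direction: 90.8% of all tested peaks found in the first run alone were above 0, and 81.6% of those in the second run alone were below 0. Of the 7 lower keratin peaks 5 were in the second run and the higher one in the first, and what defines the runs is not given. Their part in these counts was not tested. In the third run, where 103 of the 119 peaks stand, 2 were at least 2-fold lower (Krt34 and Krt28) and 0 higher, where 1.06% and 2.44% of all 65878 tested peaks of that run were. In the second run 5 of 9 keratin peaks were at least 2-fold lower, against 16.1% of all its tested peaks, so most of the lower peaks of the set stand there.

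Among the hair cortex and cuticle keratins, 10 of 11 genes with a tested peak and 23 of 26 peaks (88.5%) had ratios below 0, against 61.6% of genes and 51.3% of peaks in all. The median of these 11 genes was -0.42, and it stayed negative, between -0.76 and -0.25, under every scaling tried. The other 21 genes had a median of -0.09, with 13 of 21 genes and 55 of 93 peaks (59.1%) below 0. On chromosome 15 the hair shaft genes stood at -0.43 (Krt84), -0.04 (Krt86) and 0.34 (Krt82). Over all members with a tested peak, of any class, the median was -0.29 on chromosome 11 and -0.05 on chromosome 15. Within the third run alone, 18 of 19 hair shaft peaks and 48 of 84 peaks of the other classes were below 0, against 52.9% of all tested peaks of that run. The block from Krt33a to Krt36, picked out after its values were seen, covers 98.3 kb of chromosome 11 and 7 type I hair keratins. It had 14 tested peaks, and all 14 lay below 0, from -0.07 to -2.12. Its summed signal was 2985 normalized reads in control and 2360 in ablation, a ratio of 0.791 (0.753 to 0.830). The adjacent stretch from Krt13 to Krt9 had 1380 and 1499, a ratio of 1.09 (1.02 to 1.16), with 8 of 13 peaks above 0; its peaks include those of the basal keratin Krt15.

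**Figure D3:**
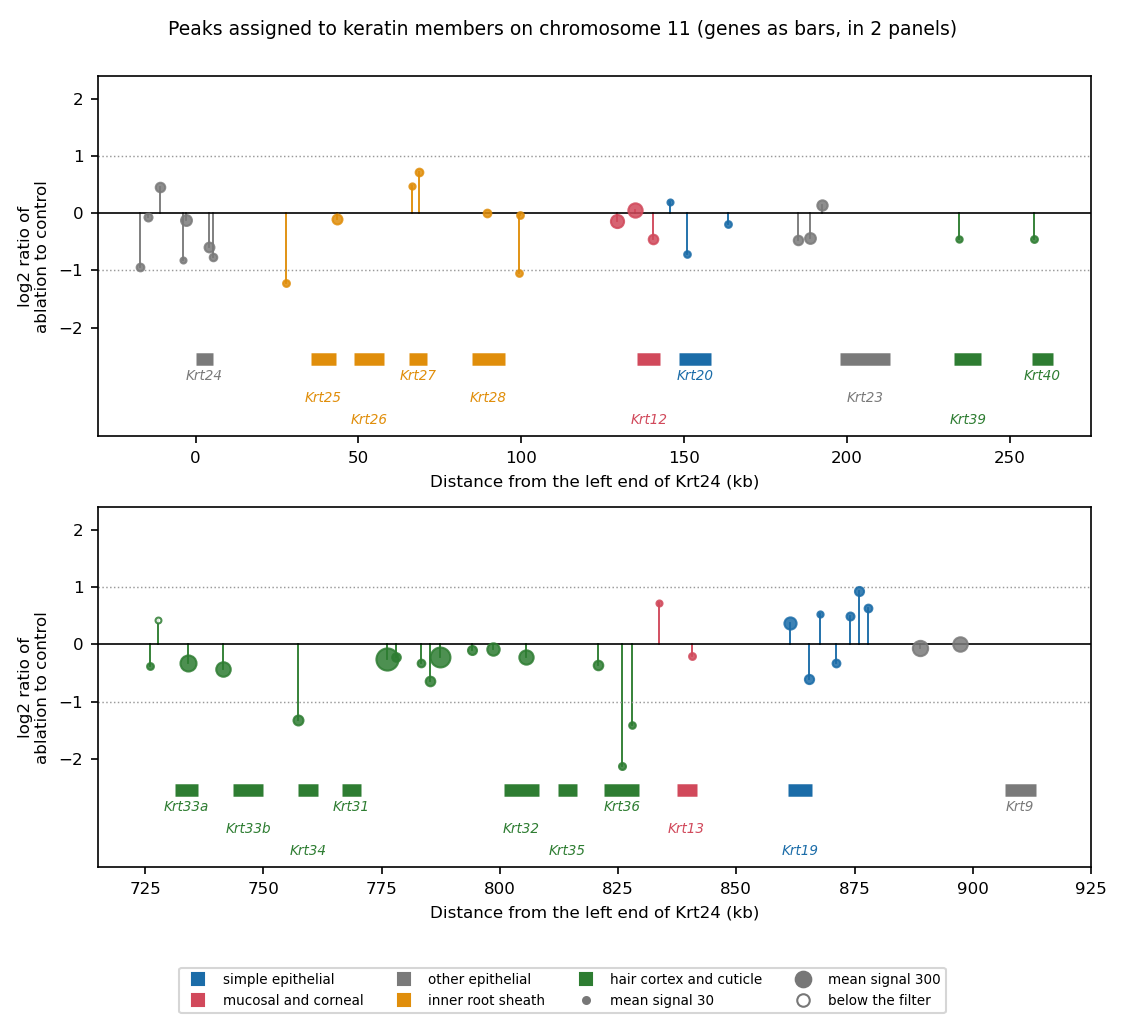
Keratin peaks on chromosome 11, placed by distance from the left end of Krt24 (kb), with the log2 ratio of ablation to control on the vertical axis, circle area rising with mean signal and genes drawn as bars. The tested peaks from Krt33a to Krt36 all lie below 0, down to -2.12, and most of those around Krt19 lie above 0.

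Krt34, a cortex keratin, has a single peak over its 3′ end (chr11:100037058-100037695). It held 145 normalized reads in control (205 reads) and 57.1 in ablation (63 reads), a ratio of 0.395 (0.293 to 0.526). That was the lowest ratio among keratin peaks of at least the median signal of all tested peaks (66.1 normalized reads), and in sums over all tested peaks of a gene Krt34 alone passed 2-fold, as 0.418% of all genes did downwards and 1.19% upwards. Krt34 passed it under every alternative run, from -1.15 to -1.66. Other members passed it under some: Krt36 was at -1.82 with peaks overlapping the gene, -1.41 with the median of its peaks and -1.21 with division by the table total, and Krt71 at 1.69 with peaks within 5 kb and 1.12 with the median of its peaks. Krt36 had 50.8 and 10.9 normalized reads in a peak over its start site (chr11:100105493-100105945; 72 and 12 reads), a ratio of 0.214 (0.106 to 0.398). A further peak 2059 bp upstream of its start held 35.3 and 12.7, a ratio of 0.360 (0.184 to 0.661). Both are in the second run, and the gene value of -0.87 was -0.36 without them, from the peak 615 bp off the gene (100.2 and 78.0). The strongest hair shaft peak lay 5030 bp upstream of Krt31 (chr11:100055581-100056530), with 699 and 583 normalized reads, a ratio of 0.834 (0.754 to 0.922). Of the 7 peaks between the genes of Krt31 and Krt32, the cuticle keratin, all were below 0, with Krt31 at -0.30 in sum and Krt32 at -0.18. Krt33a and Krt33b, a pair of cortex keratins, had their highest peaks at 356 and 283 and at 292 and 218 normalized reads, with gene values of -0.33 and -0.42.

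Krt39 and Krt40, at the other end of the type I cluster, each had 1 weak peak, with 22.6 and 16.3 and with 32.5 and 23.6 normalized reads. Their values of -0.44 each had intervals that include no change. On chromosome 15, Krt84, a hard keratin of type II, had its highest peak 3061 bp upstream of its start site with 529 and 380 normalized reads, a ratio of 0.718 (0.636 to 0.810), and a gene value of -0.43. Krt86, a cortex keratin, had 115 and 112 summed normalized reads and a value of -0.04. Krt82, a cuticle keratin, was the only hair shaft gene above 0, at 0.34 from 57.2 and 72.6 summed normalized reads, with an interval for the ratio of 0.920 to 1.75. Its 2 peaks are both in the first run. Because the position of Krt85 was not used, a peak nearer to it than to its neighbours could have been given to one of them.

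The inner root sheath keratins, which pair in the sheath that moulds the hair, went both ways, with 3 genes above and 3 below 0 and a median of -0.07. The sign of that median depended on the setting: it was 0.33 with peaks overlapping the gene, 0.15 with the highest peak of each gene, 0.10 when ratios were centred on strong gene-end peaks and -0.41 with division by the table total. Krt71 had the highest gene value of the set, 0.73, with 102 summed normalized reads in control and 169 in ablation and a ratio of 1.66 (1.33 to 2.08). One of its peaks (chr15:101729677-101730099) went from 9.17 to 31.7 normalized reads, 13 and 35 reads, a ratio of 3.46 (1.79 to 7.13), and is in the first run. A weaker one beside the gene, below the filter, held 5 and 19 reads. Its main peak, 9066 bp upstream of the start and 1450 bp from Krt74, held 92.4 and 137, a ratio of 1.48 (1.16 to 1.89). Krt27 had both of its peaks inside the gene, with 48.0 and 76.2 summed normalized reads, a ratio of 1.59 (1.14 to 2.22). These 2 genes stayed above 0 with each library divided by its table total, at 0.39 and 0.32. Krt72, whose highest peak held 433 and 532 normalized reads, stood at 0.13, and at -0.21 with division by the table total. Krt25 (-0.33), Krt28 (-0.28) and Krt73 (-0.42) stood below 0. The Krt25 peak in the start-site window, which begins 46 bp upstream of the start, held 104 and 97.0 normalized reads, a ratio of 0.936 (0.722 to 1.21), while a peak 7684 bp from the gene, in the second run, held 39.5 and 16.3. Krt28 had a peak 4184 bp upstream at 34.6 and 16.3, a ratio of 0.472 (0.259 to 0.825), and one inside the gene at 45.2 and 45.4.

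Krt75, the type II keratin of the companion layer between the sheaths, summed to 943 and 1052 normalized reads, a ratio of 1.12 (1.03 to 1.21). Its peaks differed among themselves. A peak 9115 bp upstream held 299 and 443 normalized reads, a ratio of 1.48 (1.30 to 1.69), and a peak 15844 bp upstream held 33.2 and 12.7, a ratio of 0.383 (0.195 to 0.707). Its gene value of 0.16 was -0.20 with gene-end peaks alone and -0.18 with division by the table total.

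**Figure D4:**
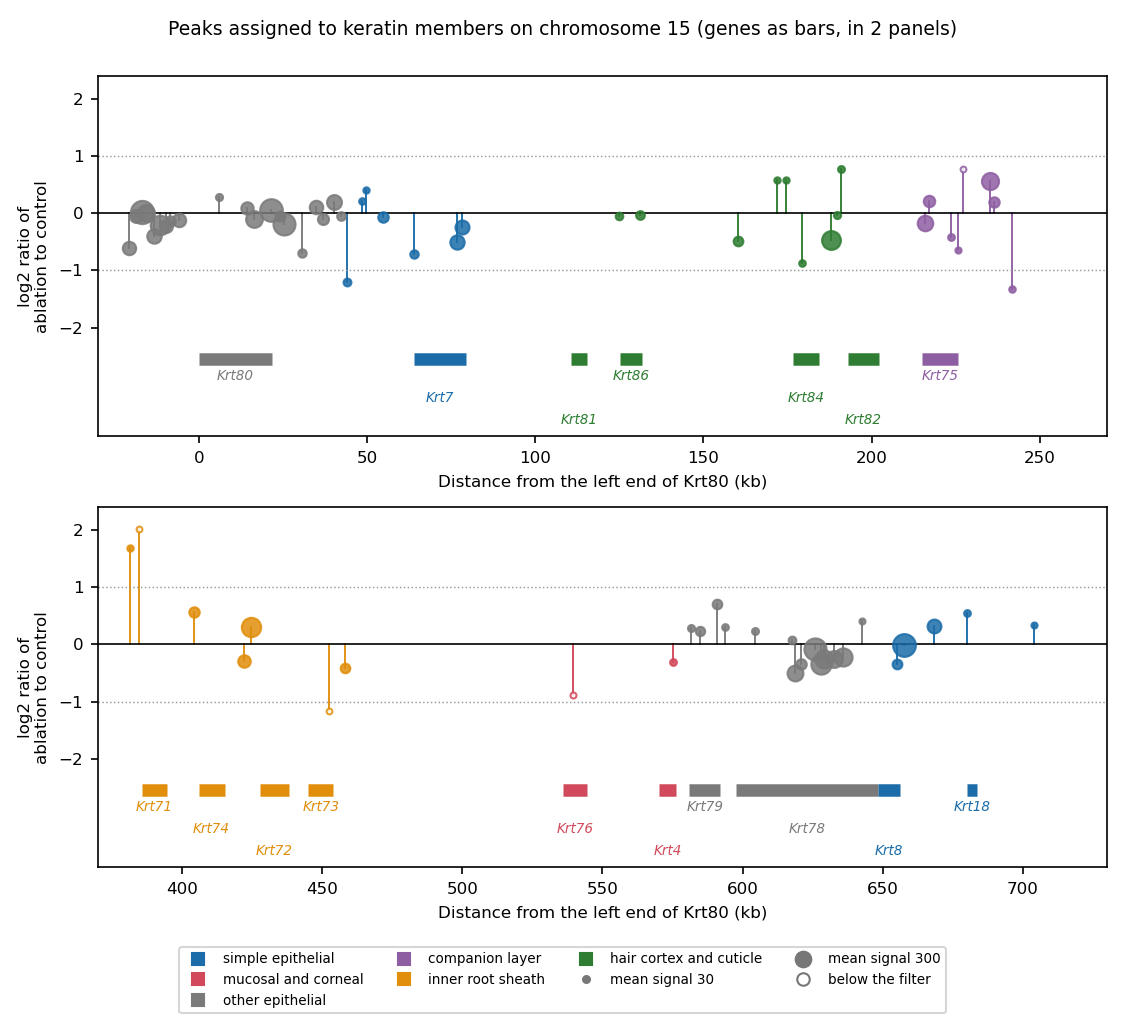
Keratin peaks on chromosome 15, placed by distance from the left end of Krt80 (kb), with the log2 ratio of ablation to control on the vertical axis; open circles are peaks below the filter. The peaks of Krt71 and Krt79 that were tested lie above 0, those of Krt78 mostly below, and the many strong peaks around Krt80 near 0.

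The simple-epithelial keratins also divided. Krt18 summed to 239 and 306 normalized reads, a ratio of 1.28 (1.10 to 1.49), and its start-site peak held 21.9 and 32.7 (31 and 36 reads). Krt8, its partner, had 685 and 678 in a peak 858 bp upstream of the start, a ratio of 0.989 (0.898 to 1.09), and a gene value of -0.06. Krt19, the smallest keratin, known in simple epithelia and the hair follicle bulge, summed to 441 and 533, a ratio of 1.21 (1.08 to 1.36). Its values ran from -0.61 in a peak inside the gene (97.4 and 63.5) to 0.94 in a peak 9546 bp away (52.9 and 102), the highest ratio among keratin peaks of at least that median signal. Krt7, of glandular and simple epithelia, was lower, at 857 and 663, a ratio of 0.774 (0.705 to 0.849). Its start-site peak held 78.3 and 47.2 normalized reads, a ratio of 0.602 (0.425 to 0.844), and its strongest peak, inside the gene, 293 and 206. Krt20, of intestine and Merkel cells, had 72.0 and 58.0 over 3 weak peaks, with an interval of 0.581 to 1.11. With each library divided by its table total Krt18 stood at 0.01 and Krt19 at -0.07.

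Merkel cells, touch receptors of the epidermis, make Krt8, Krt18 and Krt20. Of the 7 Merkel markers (Atoh1, Sox2, Isl1, Piezo2, Gfi1, Insm1 and Krt20) all had a peak. Among their 22 tested peaks 0 were 2-fold higher or lower, where 4.48% and 1.88% of all tested peaks were. Their summed signal ranged from 72.0 to 258 in control and from 58.0 to 306 in ablation. The median of the list was 0.21, from Krt20 at -0.31 to the ion channel Piezo2 at 0.70. Ratios were above 0 in 5 of 7 genes, where 61.6% of all genes were below 0. Atoh1, the factor that specifies these cells, stood at -0.14. Their part in the values of Krt8 and Krt18 was not tested.

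The mucosal and corneal keratins had the lowest median level of the classes, 61.1 normalized reads per kb in the highest peak (mean of both libraries). Krt4 and Krt13, the pair of oesophagus and mouth, had 1 peak inside each gene, with 31.8 and 25.4 and with 30.3 and 26.3 normalized reads. Krt13 has another weak peak 3395 bp away (10.6 and 18.1), in the first run, and its summed value of 0.12 was -0.20 without it. Krt76, of the palate, had 17.6 and 9.07 (25 and 10 reads), under the filter. Krt12, the keratin of the cornea, stood apart with a peak 324 bp beyond the gene at 241 and 251 normalized reads, a ratio of 1.04 (0.888 to 1.23). Its peak inside the gene held 104 and 75.3, a ratio of 0.726 (0.548 to 0.956). The gene value of Krt12 was -0.10, and -0.46 with peaks overlapping the gene. The intervals of the summed signal of Krt4, Krt12 and Krt13 all included 1.

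The remaining epithelial keratins held 46 of the 124 peaks. Krt80 had 20 of them, spread from 20621 bp on one side of the gene to 20054 bp on the other, and summed to 5660 and 5320 normalized reads, a ratio of 0.940 (0.909 to 0.972). Its log2 value of -0.09 was close to the median of all genes, and it became 0.09 when ratios were centred on strong gene-end peaks. A peak over the end of the gene at higher coordinates (chr15:101369049-101370760) held 660 and 688, and the 2 lowest of the 20 were at -0.69 and -0.61. No start-site window was listed for Krt80. Krt78 had 10 peaks inside a gene model of 50624 bp, and 9 of these lay 11415 to 36339 bp upstream of the listed start site, towards Krt8. All 10 together held 3153 and 2665, a ratio of 0.845 (0.806 to 0.886). Krt79, made in the upper hair follicle and sebaceous duct, had all 4 peaks above 0, with 200 and 272 in sum, a ratio of 1.36 (1.15 to 1.60), and 69.9 and 115 in its highest peak (1.65; 1.26 to 2.17). The value of Krt79 was 0.10 with division by the table total. Krt24 was lower at 508 and 424, a ratio of 0.835 (0.742 to 0.940), with 6 of 7 peaks below 0 and its start-site peak at 52.9 and 30.8 (0.583; 0.377 to 0.885). Krt23 stood at -0.25, from 3 peaks beyond the gene. Krt9, of palms and soles, stood at -0.03 from 2 peaks 8833 and 17130 bp away.

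Markers of the follicle were read beside these values. The 8 markers of upper follicle and sebaceous gland, Krt79 among them, all had peaks, with summed signals of 36.0 to 2476 in control and 29.02 to 2153 in ablation, and a median of -0.06 with 4 above and 4 below 0. The hair follicle stem cell markers had a median of 0.26 with 4 of 6 above 0, from Nfatc1 at -0.08 to Sox9 at 0.86, and sums of 41.6 to 4471 and 71.7 to 4228. Cd34, a surface marker gated out in the sort, stood at 0.41 and Lrig1, likewise gated out, at 0.26. The hair matrix markers, where hair keratins start to be made, had a median of 0.05 with 4 of 6 above 0, from Msx2 at -0.28 to Msx1 at 0.53, and sums of 44.5 to 1712 and 46.3 to 1756. No listed marker was without a peak, where 76.3% of all protein-coding genes had one. Over all genes with a tested peak, 61.6% of ratios were below 0. The part of these cell types in the keratin ratios was not tested.

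Genes that regulate or bind keratins had ratios of their own. Of 12 regulators of hair keratin genes all had a peak, 3 of 148 tested peaks were at least 2-fold higher and 2 lower (4.48% and 1.88% of all), and the median was -0.12. Foxi3, of hair placodes, stood highest at 0.95 from 1 peak, and Ovol1 lowest at -0.36. Hoxc13, which activates hair shaft keratins, was at -0.14 with 1047 and 950 summed normalized reads, Foxn1 at 0.04 and Lef1 at 0.12, with intervals that included 1 for Foxn1 and Lef1. Inner root sheath structural and processing genes had a median of 0.02, with 7 of 57 peaks at least 2-fold higher and 1 lower. Padi3, which deiminates sheath proteins, was highest at 1.03 from 66.3 and 137 summed normalized reads, and the desmosomal cadherin Dsg4 was lowest at -0.18. All 5 keratin linkers were below 0, from Plec at -0.09 to Evpl at -0.34, with 1 of 74 peaks 2-fold higher and 2 lower. Regulators of simple and mucosal keratins had a median of -0.20, from Klf4 at -0.32 to Pax6, a factor of the cornea, at 0.29, with 0 of 72 peaks higher and 2 lower.

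The neighbouring keratins left out of the set differed by class in the same clusters. The 3 basal keratins were above 0, with Krt14 lowest at 0.05 and a median of 0.16, the 3 wound keratins with a peak had a median of 0.17, and the 4 suprabasal keratins were all below 0 with a median of -0.31. The hair shaft median of -0.42 thus lay nearer to the suprabasal than to the basal or wound keratins. No test of this difference was possible with 1 library per group.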

How the data were processed

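Open chromatin was measured by ATAC-seq in 1 control and 1 ablation library. The deposited values are a normalized signal per peak in a shared peak table; the authors' scaling is not given. The submitters' processing notes name the mm10 build, MACS2 2.1.0.20151222, HTSeq, Bowtie2 2.3.4.2, Trimmomatic and Picard, without roles or settings. Nearly every value was a whole multiple of 1 read, worth 0.706 normalized reads in control and 0.907 in ablation, to within 0.1 read for 100% and 99.998% of values, so reads were recovered. A count test across peaks was not run because each group has 1 library.

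The table had 116411 rows; merging 31817 exact repeats left 84594 peaks, 84591 of them nuclear and 3 mitochondrial. Peaks were assigned with RefSeq gene positions (GRCm38.p6) to protein-coding genes overlapped or nearest within 50 kb. Ratios used log2 with a pseudocount of 1 on the 76147 peaks with a mean signal of at least 13.96 (10th percentile), and a 2-fold size criterion without p-values. Intervals (95%, exact Clopper-Pearson) cover counting error only, and a count of 0 allows up to 3 reads, or 2.12 and 2.72 normalized reads. Coordinates are as deposited, without a stated base. Named genes were all members; named peaks were the highest of each gene, those past 2-fold, and the highest and lowest 2 ratios among peaks of at least median signal; of each list the highest and lowest genes. Other names were chosen after their values were seen. Members and lists were chosen with earlier results of these data known. Scripts used Python 3.11.15, numpy 2.4.6, pandas 2.3.3, scipy 1.17.1 and statsmodels 0.14.6, and were tested on simulated data.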

Additional observations from a re-analysis of the deposited data

How the results depend on the processing

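The direction of both medians was the same under every alternative run. The median of the keratin genes (-0.24) was -0.31 with peaks overlapping the gene, -0.16 with peaks within 5 kb, -0.58 with division by the table total, -0.15 with division by the nuclear total, -0.15 with a loess correction, -0.067 with centring on strong gene-end peaks, -0.10 with the highest peak, -0.19 with the median of a gene's peaks and -0.10 with gene-end peaks alone. The hair cortex and cuticle median (-0.42) was -0.76, -0.33, -0.33 and -0.25 under those 4 scalings in turn, -0.36 with the highest peak and -0.36 with peaks of the third run alone. The count of peaks at least 2-fold higher (1) was 0 with gene-overlapping peaks, with a filter at the 25th percentile and with the third run alone. It was 2 without a filter (6.14% of all peaks), with the nuclear total (5.69%) and with gene-end centring (7.05%), and 7 at a 1.5-fold threshold (13.0%). The count of peaks at least 2-fold lower (7) was 3 with gene-overlapping peaks, 4 within 5 kb, 14 with the table total (5.56% of all tested peaks, against 1.88% as reported), 2 with the third run alone (1.06%), 19 at 1.5-fold (7.47%) and 1 at 3-fold (0.257%). The third-run setting and the setting that treats Krt74 as protein-coding were chosen after seeing the data. Where a setting only tests fewer peaks its count can stay the same or fall but not rise, and otherwise the cause was not tested. The inner root sheath median (-0.07) also turned positive within 5 kb (0.10), with gene-end peaks alone (0.19), with the nuclear total (0.018), with the third run alone (0.019) and with Krt74 as protein-coding (0.13), where Krt71 stood at 1.69. Of 450 single-gene comparisons, 72 moved beyond the counting interval and 34 differed in sign. No paired analysis was possible because the groups share fewer than 2 replicate numbers, and with 1 library per group no replicate could be left out. Depth limits the weak peaks most, where ablation counts went down to 6 reads.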

Other observations

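Between Krt40 and Krt33a lies a stretch of 468 kb that holds 23 keratin-associated protein genes, whose products cross-link hair keratins in the hair shaft. This group was chosen after its values were seen. Of the 23 genes 7 had a peak by the same rule, with 8 peaks, where 76.3% of all protein-coding genes had a peak. Of the 7 tested peaks 5 were above 0 and 2 below, where 51.3% of all tested peaks were below 0. At 2-fold, 2 were higher and 1 lower (4.48% and 1.88% of all tested peaks). No test against the hair keratin peaks on the far side was possible. The highest ratio was that of a peak in Krtap3-2, from 4.94 to 27.2 normalized reads (7 and 30 reads), a log2 ratio of 2.25, in the first run of the table. The lowest was 137 bp from Krtap3-3, from 45.2 to 17.2 normalized reads, a log2 ratio of -1.34. The strongest, over Krtap2-4, held 126 and 147 normalized reads, a log2 ratio of 0.22.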
